A study of Mus musculus with 6 samples.

Results

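Homologous recombination and the Fanconi anemia pathway are described here through 39 genes, picked by symbol from the 24061 genes of a count table of cultured mouse lung fibroblasts. All 39 were found by their current symbol, and all 39 passed the filter on low counts, which kept 14190 genes. The cells are resident fibroblasts taken from fibrotic lungs of TGF-alpha transgenic mice. TGF-alpha activates the epidermal growth factor receptor, and the cells of all 6 libraries carry the transgene. In 3 libraries the cells had received a stealth control siRNA (libraries 1 to 3) and in 3 a stealth siRNA against WT1 (libraries 4 to 6), a zinc finger transcription factor first described in Wilms tumor. What drives the transgene, the age of the mice, the siRNA sequences, the time to harvest and whether the 3 libraries of a siRNA are separate cultures were not given in the sources used here. All p-values thus rest on the spread of these libraries alone, and that spread may be technical.

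Homologous recombination repairs a double-strand break by copying the intact sister chromatid, so it runs mainly in S and G2 phase. The MRE11-RAD50-NBN complex binds and trims the broken end, BRCA1 with BARD1 promotes resection, and BRCA2 with PALB2 prepares the resected strand for the search of its partner. The Fanconi core complex ubiquitinates FANCD2 and FANCI at a crosslink between the strands, and nucleases then unhook it. ATM and ATR are the kinases that signal breaks and stalled forks through CHEK2 and CHEK1.

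Total counts were 26.1 to 32.1 (in units of 1e6 reads per library), so that 3 counts were worth 0.0935 to 0.115 counts per 1e6 (CPM). The targeted gene Wt1 had 48.8, 55.7 and 51.5 CPM in control libraries 1 to 3 and 11.4, 8.63 and 7.92 CPM in Wt1 siRNA libraries 4 to 6 (log2 fold change -2.48 ± 0.16 SE). All 9 fibroblast markers were detected, although Thy1 was low at 4.01 to 12.3 CPM. Their summed level was 21201 to 30443 CPM in controls and 32962 to 40187 CPM after Wt1 siRNA, with 5 of 9 higher and 2 lower. Marker sums of other cell types were small: 47.2 to 64.2 against 40.3 to 46.6 CPM for 8 epithelial genes (Scgb1a1 at 0 in all libraries), 92.1 to 115 against 76.1 to 95 CPM for 6 endothelial genes, and 40.1 to 49.8 against 31.4 to 37.3 CPM for 8 macrophage genes, with 1 called gene in each list, which was lower. The macrophage gene Adgre1 stayed at 0 to 0.362 CPM, but others of these lists were higher. Over the 6 libraries Lyz2 had 18.4 to 24.7 and Cd14 5.88 to 20.6 CPM among macrophage genes. Krt8 had 16.5 to 23.4 and Krt18 12.9 to 24.1 CPM among epithelial genes, and Cdh5 39.5 to 67.2 CPM among endothelial genes. The 5 lymphocyte genes summed to 0.185 to 0.950 against 0.0362 to 0.335 CPM, with Cd3e and Cd3g at 0. The 5 mesothelial genes summed to 174 to 223 against 136 to 178 CPM, with 2 higher and 2 lower. Smooth muscle and pericyte genes, 6 in all, summed to 3013 to 3665 against 4094 to 6065 CPM, with 1 higher. How far these shifts bear on the repair genes was not tested.

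After Wt1 siRNA, 7 of the 39 repair genes fell and 0 rose: Rad50, Clspn, Fancd2, Brca1, Mre11a, Rad54l and Rad51c (quasi-likelihood test of edgeR, p adjusted by Benjamini-Hochberg over all genes tested, threshold 0.05). This is 17.9% of the members, where 10.3% of all tested genes were lower and 9.05% were higher. DESeq2, limma-voom and an unadjusted p below 0.05 each gave 0 higher members, while 21 were lower at that unadjusted p. Of all 14190 genes tested, 2343 were lower and 2208 were higher at the same unadjusted cut. Of the 39 log2 fold changes 32 were negative (82.1%, against 49.6% of all genes tested), and their median was -0.57 against 0.00 for all genes. In 20 members all 3 Wt1 siRNA libraries lay below all 3 controls (51.3%, background 18.3%), and in 1, Atr, they lay above (2.56%, background 18.1%). The count of lower members was 11 when libraries were scaled by size alone. Leaving out control library 2 also gave 11, and leaving out Wt1 siRNA library 4 gave 4, with 0 higher each time. Over all genes, the fit without control library 2 called 1406 lower and 1253 higher. The fit without Wt1 siRNA library 4 called 785 lower and 578 higher, so calls were fewer over the whole table there. With size scaling alone the split of calls over all genes also moved, from 1284 higher and 1459 lower to 855 higher and 1829 lower.

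**Figure D1:**
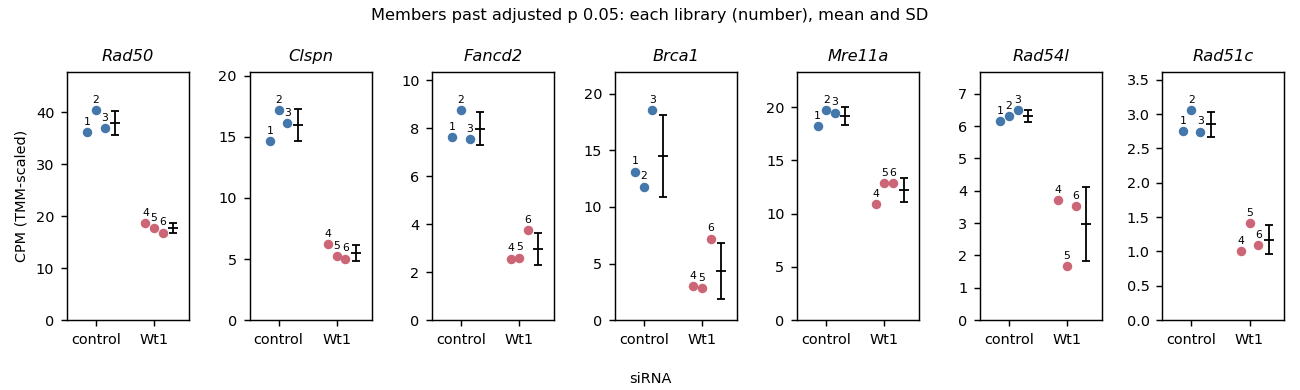
CPM (TMM-scaled, linear axis from 0) of the 7 members past the threshold, with 1 point per library, numbered, and the mean and SD of 3 libraries as a bar. In each panel the 3 Wt1 siRNA libraries lie below the 3 controls; Brca1 has the widest spread, with Wt1 siRNA library 6 at 7.20 CPM above libraries 4 and 5.

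Promoter windows were read for the genes that fell, as a description of their sequence. The windows run from 250 bases before to 50 after an annotated start site, in the direction of the gene, from RefSeq on GRCm38.p6; 31 of the 39 members and 5 of the 7 that fell had an entry. Rad51c and Rad54l have a pair of start sites each, of which 1 is shown. Capitals mark every match, on either strand, to an E2F site (TTTCCCGC, TTTCGCGC, TTTGCCGC or TTTGGCGC), to CCAAT, which NF-Y binds, or to a WT1/EGR site (GCGNGGGNG). A match on the opposite strand is read as its reverse complement, so that CCAAT appears there as ATTGG.
Brca1, chr11:101551906-101552205, minus strand: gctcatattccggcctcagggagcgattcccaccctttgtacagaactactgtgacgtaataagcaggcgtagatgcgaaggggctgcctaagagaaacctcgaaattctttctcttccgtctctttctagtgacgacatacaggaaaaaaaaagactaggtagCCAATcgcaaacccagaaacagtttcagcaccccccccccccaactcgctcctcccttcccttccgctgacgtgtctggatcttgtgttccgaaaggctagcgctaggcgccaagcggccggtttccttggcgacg
Clspn, chr4:126556730-126557029, plus strand: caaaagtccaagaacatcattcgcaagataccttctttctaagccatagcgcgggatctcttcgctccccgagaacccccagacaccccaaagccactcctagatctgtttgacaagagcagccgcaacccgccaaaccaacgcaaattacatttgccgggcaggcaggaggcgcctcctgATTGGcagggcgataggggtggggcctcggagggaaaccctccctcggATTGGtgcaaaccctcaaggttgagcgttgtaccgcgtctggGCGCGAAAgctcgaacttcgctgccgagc
Mre11a, chr9:14784404-14784703, plus strand: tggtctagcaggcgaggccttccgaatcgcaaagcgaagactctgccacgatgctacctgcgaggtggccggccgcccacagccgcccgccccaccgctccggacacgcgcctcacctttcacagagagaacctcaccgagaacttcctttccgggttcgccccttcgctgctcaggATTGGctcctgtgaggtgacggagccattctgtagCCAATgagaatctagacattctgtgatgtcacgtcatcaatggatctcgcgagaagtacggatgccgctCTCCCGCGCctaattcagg
Rad54l, chr4:116123641-116123940, minus strand: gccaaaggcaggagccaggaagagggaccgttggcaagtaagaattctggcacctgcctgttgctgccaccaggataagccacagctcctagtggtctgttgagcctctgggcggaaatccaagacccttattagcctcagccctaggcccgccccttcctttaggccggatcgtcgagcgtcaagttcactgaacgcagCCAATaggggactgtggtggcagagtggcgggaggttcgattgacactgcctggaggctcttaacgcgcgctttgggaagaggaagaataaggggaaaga
Rad51c, chr11:87404905-87405204, minus strand: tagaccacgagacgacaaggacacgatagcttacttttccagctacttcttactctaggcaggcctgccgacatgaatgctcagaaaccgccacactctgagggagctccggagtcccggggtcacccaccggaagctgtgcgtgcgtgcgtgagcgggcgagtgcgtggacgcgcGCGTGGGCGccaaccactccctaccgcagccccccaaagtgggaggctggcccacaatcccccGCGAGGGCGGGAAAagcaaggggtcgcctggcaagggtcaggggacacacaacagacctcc
The Clspn window held an E2F match on the opposite strand at bases 272 to 279 and a pair of CCAAT matches on that strand. Brca1 had a CCAAT match at bases 165 to 169 and Rad54l at 201 to 205. Mre11a had CCAAT on both strands and a WT1/EGR match at bases 282 to 290. The printed Rad51c window held WT1/EGR matches at bases 177 to 185 and 240 to 248, and the second overlaps an E2F match at bases 246 to 253. Positions count from 1 at the 5′ end of the window. The other Rad51c window also held a match to each of these sites.

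Over genes, an E2F match was found in 6 of 31 members (19.4%) and in 4.68% of the 11080 tested genes with an entry, and CCAAT in 20 of 31 (64.5%) against 43.1%. A WT1/EGR match was found in 3 of 31 members (9.68%), against 24.2% of tested genes. The other element searched was the cell cycle homology region CHR (TTTGAA or TTCGAA), found in 5 of 31 members (16.1%) and 16.6% of tested genes. Shares over all 27025 genes with an entry were 2.60% for E2F, 41.1% for CCAAT, 13.7% for WT1/EGR and 21.7% for CHR. The median G and C content of the windows was 57.7% in members and 60.3% in tested genes. Of the 6 members with an E2F match, Clspn and Rad51c fell, while Brca2, Bard1, Chek2 and Fancg did not pass. A WT1/EGR match was found in 2 of the 5 members that fell and in 1 of the 26 others with an entry. These counts were 4 of 5 and 16 of 26 for CCAAT, and 0 of 5 and 5 of 26 for CHR. The splits rest on few genes and were not tested. A match is only a run of letters in the window and shows no binding.

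BRCA1 and BARD1 form the ubiquitin ligase at the head of the pathway. Of the 5 genes of the BRCA complex and mediators 1 fell (20.0%, against 10.3% of all genes tested, median log2 fold change -0.72). In roles of so few genes 1 call makes a large share, and differences between roles were not tested. Brca1 (gene ID 12189, GRCm38 chromosome 11, 101488761 to 101551955) stood at 13.1, 11.8 and 18.6 CPM in control libraries 1 to 3 and at 3.01, 2.83 and 7.20 CPM in Wt1 siRNA libraries 4 to 6. The groups did not overlap, and Wt1 siRNA library 6 was the highest of its group. The means were 14.5 ± 3.59 and 4.35 ± 2.47 CPM (SD, n = 3), which made Brca1 3.31-fold lower, the largest fall among members (log2 fold change -1.73 ± 0.34 SE, edgeR adjusted p = 0.00399). It passed with each library left out in turn (6 of 6), with log2 fold changes of -2.31 to -1.49. Its partner Bard1 had 10.2, 5.31 and 12.2 CPM in controls and 6.51, 4.82 and 8.11 CPM after Wt1 siRNA, and the groups overlapped (-0.51 ± 0.30, adjusted p = 0.277). Control library 2 was the low one, and without it Bard1 passed. The ratio of Brca1 to Bard1 reads was 1.28, 2.22 and 1.52 in controls and 0.463, 0.586 and 0.888 after Wt1 siRNA. BRCA2, its anchor PALB2 and RAD51AP1 act at the step of strand exchange. Brca2 (-0.64 ± 0.22, adjusted p = 0.0571), Palb2 (-0.72 ± 0.48) and Rad51ap1 (-0.86 ± 0.34) did not pass. Brca2 went from 9.23, 7.39 and 9.74 to 4.80, 5.80 and 6.26 CPM, without overlap, and passed without control library 2 or with size scaling alone.

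The 5 genes of the BCDX2 and CX3 complexes, which act at the same step, held 1 that fell (20.0%, against 10.3% of all genes tested, median -0.77). Rad51c (gene ID 114714, chromosome 11, 87376645 to 87404954) was low, at 2.75, 3.06 and 2.74 CPM in controls and 1.0, 1.41 and 1.10 CPM after Wt1 siRNA. The means of 2.85 ± 0.183 and 1.17 ± 0.215 CPM (SD, n = 3) gave a 2.43-fold fall (-1.28 ± 0.40, edgeR adjusted p = 0.0402). The groups did not overlap, but the call was lost with any 1 of the 6 libraries left out, with adjusted p up to 0.128 (without Wt1 siRNA library 4). Rad51d, a member of the BCDX2 complex, stayed close to its control level: 14.0, 16.1 and 14.7 CPM against 15.2, 13.9 and 15.6 CPM (0.00 ± 0.15, adjusted p = 0.997). Xrcc3, the partner of RAD51C in the CX3 complex, had a log2 fold change of 0.17 ± 0.27, Xrcc2 of -0.77 ± 0.28 (adjusted p = 0.0770) and Rad51b of -0.82 ± 0.63. Xrcc2 passed without control library 2. Rad51b was the least abundant member, with 0.710 to 2.56 CPM in controls. The ratio of Rad51c to Rad51d reads was 0.187 to 0.196 in the controls and 0.0660 to 0.102 after Wt1 siRNA.

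RAD54L and RAD54B are translocases that open the donor duplex, and BLM and BRIP1 (FANCJ) are helicases; of these 4 genes 1 fell (median -0.66). Rad54l (gene ID 19366, chromosome 4, 116094261 to 116123700) had 6.14, 6.30 and 6.50 CPM in controls and 3.72, 1.67 and 3.54 CPM after Wt1 siRNA. Controls were close together while Wt1 siRNA library 5 was low, and the groups did not overlap. Rad54l was 2.12-fold lower (-1.08 ± 0.31, edgeR adjusted p = 0.0295), and the call held only without Wt1 siRNA library 6 among the 6 fits with a library left out (adjusted p up to 0.0845, without control library 3). Some 4.12% of its exon bases lie under Lrrc41 on the other strand. Rad54b, Blm and Brip1 did not pass, with log2 fold changes of -0.67 ± 0.31, -0.61 ± 0.21 and -0.64 ± 0.25. Rad54b shares 39.2% of its exon bases with Fsbp and a predicted gene, so its reads are uncertain. Blm passed without control library 2 or with size scaling alone, and Brip1 without Wt1 siRNA library 6.

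Of the 5 genes of end resection 2 fell (median -0.65), both from the complex of MRE11, RAD50 and NBN. Rad50, its ATPase (gene ID 19360, chromosome 11, 53649519 to 53707319), had 36.2, 40.4 and 36.9 CPM in controls and 18.6, 17.7 and 16.8 CPM after Wt1 siRNA. These were tight, separate groups with means of 37.9 ± 2.27 and 17.7 ± 0.899 CPM (SD, n = 3). Rad50 fell 2.14-fold (-1.10 ± 0.13, edgeR adjusted p = 1.77e-04), the smallest p of any member. Mre11a, the nuclease (gene ID 17535, chromosome 9, 14784654 to 14837125), had 18.2, 19.7 and 19.5 CPM in controls and 10.9, 12.8 and 12.8 CPM after Wt1 siRNA. Again no library of one group reached the other. It was 1.57-fold lower (-0.65 ± 0.15, edgeR adjusted p = 0.0113, and 0.0706 without Wt1 siRNA library 4). Nbn, which recruits ATM, had 24.3, 16.4 and 23.0 CPM in controls and 16.2, 22.4 and 22.1 CPM after Wt1 siRNA. Its groups overlapped (-0.07 ± 0.19, adjusted p = 0.850). The ratio of Rad50 to Nbn reads was 1.49, 2.47 and 1.61 in controls and 1.15, 0.788 and 0.761 after Wt1 siRNA, lower in all 3. Exo1, the long-range exonuclease, went from 6.42, 5.98 and 11.1 to 4.02, 2.43 and 5.32 CPM without overlap and missed the threshold (-0.99 ± 0.33, adjusted p = 0.0538). It passed with DESeq2, without a count filter, with size scaling alone, and without control library 2 or Wt1 siRNA library 6. Rbbp8, CtIP, which starts resection with MRE11, had -0.41 ± 0.16 (adjusted p = 0.0972).

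The 4 checkpoint kinases did not pass, while their mediator did (1 of 5 genes, 20.0%, against 10.3% of all genes tested, median -0.18). Clspn, claspin, which brings CHEK1 to ATR (gene ID 269582, chromosome 4, 126556957 to 126594533), had 14.6, 17.2 and 16.1 CPM in controls and 6.21, 5.22 and 5.04 CPM after Wt1 siRNA. Every Wt1 siRNA library was far below every control. Claspin transcripts were 2.91-fold lower (16 ± 1.29 to 5.49 ± 0.631 CPM, SD, n = 3; -1.54 ± 0.18, edgeR adjusted p = 2.14e-04). Chek1 had 8.89, 9.64 and 9.55 CPM in controls and 7.66, 6.31 and 7.26 CPM in the Wt1 siRNA libraries (-0.40 ± 0.19, adjusted p = 0.170). The ratio of Clspn to Chek1 reads was 1.65 to 1.78 in controls and 0.694 to 0.828 after Wt1 siRNA. Atr, with 31.6, 28.6 and 29.7 CPM in controls and 37.8, 31.8 and 37.3 CPM after Wt1 siRNA, had a positive log2 fold change of 0.25 ± 0.13 (adjusted p = 0.195). Its groups were only just apart, at 31.6 and 31.8 CPM. Some 7.9% of the exon bases of Atr lie under other annotated genes on the other strand. Atm had -0.18 ± 0.12 and Chek2 -0.14 ± 0.19.

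Of the pair of Fanconi substrates 1 fell. Fancd2 (gene ID 211651, chromosome 6, 113531640 to 113597020), which is monoubiquitinated at crosslinks, had 7.62, 8.76 and 7.56 CPM in controls and 2.57, 2.61 and 3.76 CPM after Wt1 siRNA. It was 2.67-fold lower (-1.42 ± 0.25, edgeR adjusted p = 0.00228), and the groups were well apart. It passed in 6 of 6 fits with a library left out. Fanci, the other protein of the clamp, had 18.2, 14.6 and 18.1 CPM in controls and 10.3, 9.68 and 16.7 CPM with Wt1 siRNA (-0.47 ± 0.22, adjusted p = 0.161). Wt1 siRNA library 6 lay among the controls, and without it Fanci passed. The ratio of Fancd2 to Fanci reads was 0.419, 0.600 and 0.418 in controls and 0.248, 0.270 and 0.224 after Wt1 siRNA. Fanci shares 13.4% of its exon bases with Polg on the other strand, and Fancd2 4.64% with Fancd2os.

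Of the 9 genes of the core complex and its E2 enzyme, 0 passed in edgeR or in any of 12 alternative settings (median -0.43). At an unadjusted p below 0.05, 4 of these 9 were lower and 0 higher, where 2343 of all 14190 genes tested were lower and 2208 higher. Log2 fold changes were negative in 6: Ube2t, the E2 (-0.87 ± 0.40), Fancb (-0.74 ± 0.32), Fancl, the RING ligase subunit (-0.57 ± 0.24), Fancf (-0.52 ± 0.36), Fanca (-0.43 ± 0.19) and Fancm, the anchor on DNA (-0.43 ± 0.16). They were positive in Fancc (0.28 ± 0.26), Fancg (0.25 ± 0.26) and Fance (0.08 ± 0.22). Libraries of the groups did not overlap in 5 of the 9 genes (55.6%), all lower. Over all genes tested 18.3% lay below the controls in this way and 18.1% above. Fancl shares 17% of its exon bases with Vrk2 on the other strand and Fanca 8.62% with Zfp276. The nucleases that cut branched DNA gave -0.48 ± 0.16 for the scaffold Slx4 (adjusted p = 0.0568, past the threshold with size scaling alone) and -0.53 ± 0.21 for Mus81. Eme1, the partner of MUS81, had a 3.42-fold range within controls, second to Rad51b at 3.60-fold: 13.6, 3.98 and 8.83 CPM in controls and 8.29, 6.13 and 12.7 CPM after Wt1 siRNA (0.04 ± 0.38). Some 12.1% of the exon bases of Eme1 lie under Lrrc59 and Mrpl27 on the other strand. Polq, the polymerase of an end joining route that competes with recombination, went from 9.29, 3.62 and 7.78 to 3.94, 3.33 and 4.32 CPM (-0.84 ± 0.33, adjusted p = 0.0961, passing without control library 2).

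**Figure D2:**
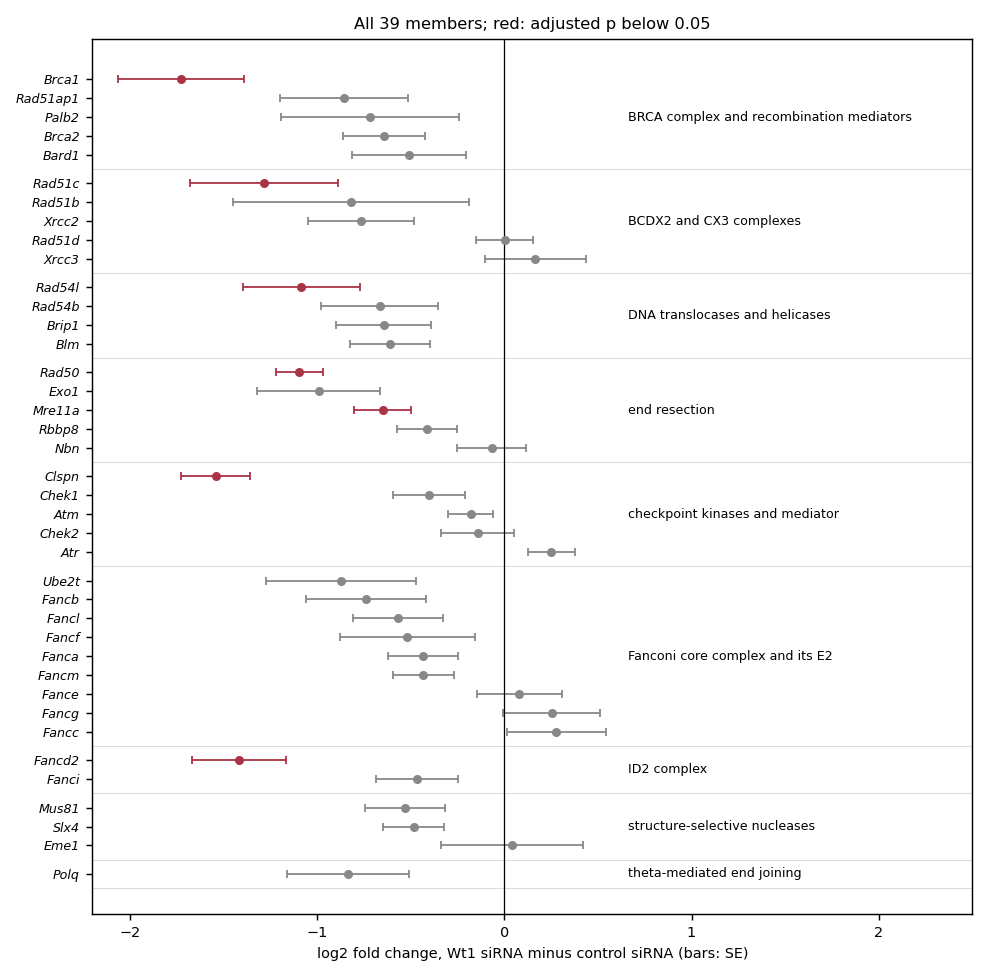
Log2 fold change of each of the 39 members, Wt1 siRNA minus control siRNA, with SE bars, ordered within roles; red points passed adjusted p 0.05 in edgeR. The 7 red points lie between -1.73 and -0.65, and 7 grey points lie at or right of 0, from Rad51d at 0.00 to Fancc at 0.28.

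Because fold changes were unlike within some complexes, 12 ratios between partners or genes of like role were compared across the 6 libraries. The pairs were picked after the values had been seen. Rad54l with Rad54b and Atm with Atr are pairs of like enzymes, not partners in a complex. With 3 libraries against 3 the smallest p of a two-sided exact permutation test is 0.1, so none could pass 0.05. That smallest p, 0.12 after Benjamini-Hochberg adjustment over the 12, was reached by the ratios named above and by Mre11a to Nbn, Rad50 to Mre11a, Rad51c to Xrcc3, Rad54l to Rad54b and Atm to Atr, 10 in all. The Atm to Atr ratio was 1.38, 1.29 and 1.47 in controls and 0.933, 1.2 and 0.983 after Wt1 siRNA. Mus81 to Eme1 (exact permutation p = 0.3) and Brca2 to Palb2 (exact permutation p = 0.7) overlapped between groups. The ratios restate the fold changes that led to the choice of pairs and are given as a description.

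**Figure D3:**
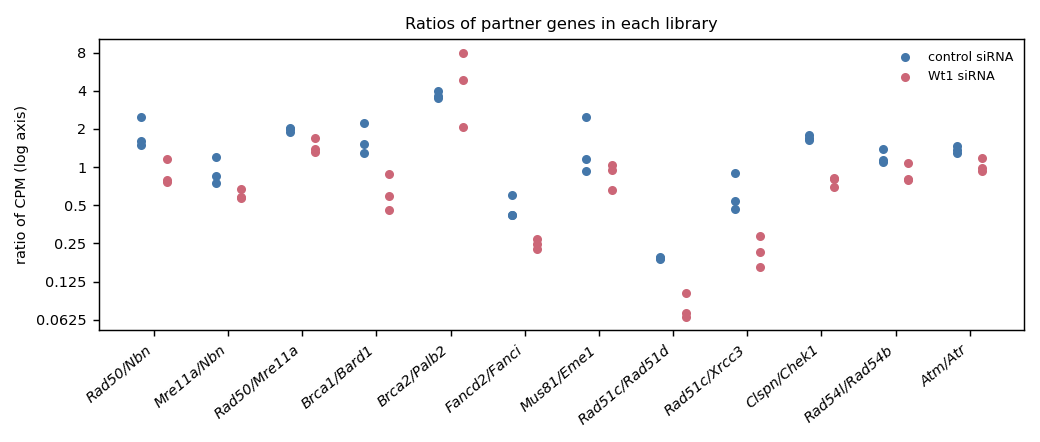
Ratio of CPM between 12 pairs of genes, partners or of like role, in each of the 6 libraries (log axis, blue control siRNA, red Wt1 siRNA). Clspn/Chek1 is 1.65 to 1.78 in controls and 0.694 to 0.828 after Wt1 siRNA, while Brca2/Palb2 overlaps, with 3.50 to 3.98 in controls and 2.08 to 8.0 after Wt1 siRNA.

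Levels between members were compared as CPM per kb of annotated exon. In controls Nbn (8.38 CPM per kb, range 6.46 to 9.60), Chek2 (7.88, range 7.04 to 8.98) and Rad50 (7.35, range 7.03 to 7.85) were the highest, and their ranges overlapped. Rbbp8 (6.50) and Mus81 (5.30) followed. At the low end stood Rad51b (0.421), Palb2 (0.598) and Rad51c (0.662), whose ranges also overlapped. After Wt1 siRNA Nbn and Chek2 were at 7.99 and 7.13 CPM per kb, while Rad50 was at 3.44, below Rbbp8 (4.88), Rad51d (4.35) and Atr (4.34), among others. Brca1 went from 2.21 to 0.661 CPM per kb, and Rad51b (0.237) and Rad51c (0.272) were the lowest.

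The libraries of a group were not alike for these genes. Control library 2 was the lowest control in 23 of 39 members (59.0%, against 39.7% of all tested genes). Wt1 siRNA library 5 was the lowest of its group in 22 (56.4%, against 36.2%), and library 6 in 4 (10.3%, against 36.0%). Control library 3 was the highest control in 15 members (38.5%, against 32.5%). The summed level of the 39 genes was 478, 435 and 497 CPM in controls 1 to 3 and 342, 321 and 382 CPM in Wt1 siRNA libraries 4 to 6, with no overlap.

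**Figure D4:**
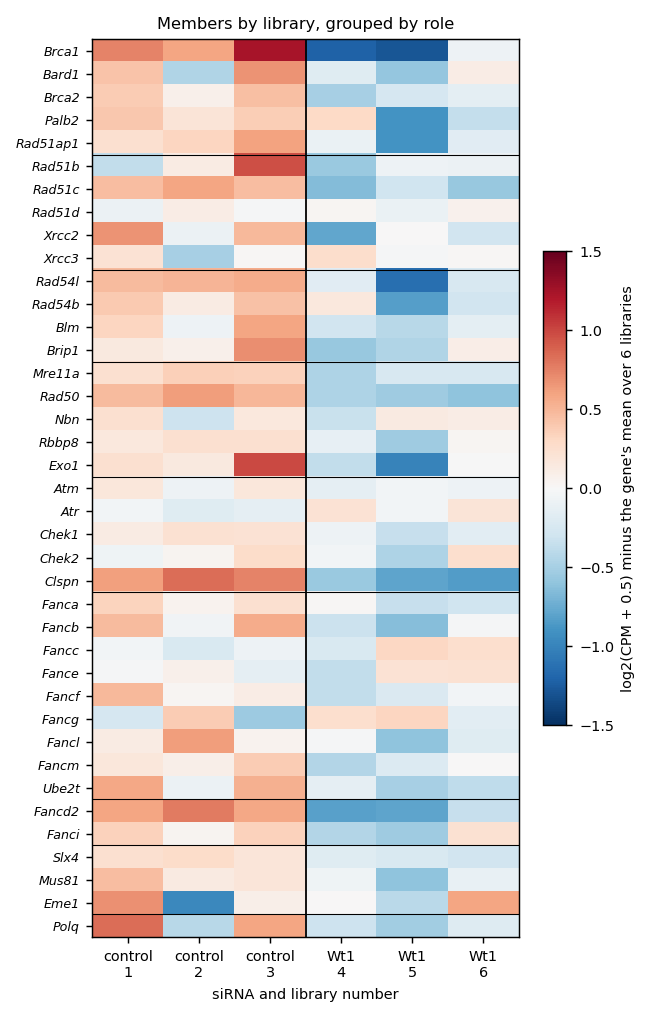
Log2(CPM + 0.5) of each member minus its mean over the 6 libraries (colour), with members in rows grouped by role and libraries in columns. Rad50, Clspn and Fancd2 are red in all 3 controls and blue in all 3 Wt1 siRNA libraries, while Bard1, Xrcc3, Nbn, Eme1 and Polq have a blue cell in control library 2.

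Genes of DNA replication and mitosis also fell. The 42 genes of replication and the G1/S transition summed to 1079, 973 and 1267 CPM in controls and 705, 728 and 849 CPM after Wt1 siRNA. In that list 16 genes fell (38.1%) and 0 rose (0 also at an unadjusted p below 0.05 and with DESeq2). Over all genes tested 10.3% were lower and 9.05% were higher. The 3 genes of the list with the smallest p were Lig1, the replicative ligase (-1.38 ± 0.19), Rrm1 of ribonucleotide reductase (-0.87 ± 0.13) and Uhrf1, a reader of newly replicated DNA (-1.16 ± 0.18). The number of genes that fell was 7 when control library 3 or Wt1 siRNA library 4 was left out and 8 when Wt1 siRNA library 5 was. Its median log2 fold change, -0.58, stood beside -0.57 for the repair genes. All 24 mitosis genes tested fell, with a median of -1.20, and the smallest p were those of Cenpf (-1.45 ± 0.16), Cenpe (-1.45 ± 0.16) and Mki67 (-1.80 ± 0.20); 0 rose (0 at an unadjusted p below 0.05 and with DESeq2). They summed to 1253, 1153 and 1554 CPM in controls and 519, 545 and 675 CPM after Wt1 siRNA.

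The summed repair genes were 44.3%, 44.8% and 39.2% of the summed replication genes in controls and 48.5%, 44.0% and 44.9% after Wt1 siRNA, overlapping ranges. Against the summed mitosis genes they were 38.2%, 37.8% and 32% in controls and 65.9%, 58.8% and 56.5% after Wt1 siRNA, with no overlap. In these bulk samples fewer dividing cells and less RNA per cell cannot be told apart. The part of cell division in the falls of single repair genes was not tested.

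Among 19 regulators of these programs, of the E2F, DREAM and MYB families, 5 fell (26.3%) and 2 rose (10.5%). Over all genes tested 10.3% were lower and 9.05% were higher, so the share that rose was near that of all genes. Foxm1, a factor of G2 genes, fell by 1.04 ± 0.19 on the log2 scale, the repressor E2f8 by 1.12 ± 0.32 and the pocket protein gene Rbl2 by 0.56 ± 0.16. Rb1 (-0.47 ± 0.14), Lin54 (-0.44 ± 0.13), E2f6 (0.40 ± 0.12) and E2f3 (0.39 ± 0.12) are named because they complete these counts, after their values were seen. Left out in turn, control libraries 1 and 2 and Wt1 siRNA library 5 each gave 3 lower, control library 3 gave 2 and Wt1 siRNA library 4 gave 1. With size scaling alone, or without control library 1, 2 or 3 or Wt1 siRNA library 4, 0 rose, and 1 rose without Wt1 siRNA library 5 or 6. Of 14 p53 targets, which respond to DNA damage among other stresses, 9 rose (64.3%) and 3 fell (21.4%). Sesn2 (1.44 ± 0.11), Trp53inp1 (1.20 ± 0.10) and Btg2 (0.75 ± 0.11) had the smallest p. The 3 that fell, Zmat3 (-0.73 ± 0.11), Eda2r (-0.70 ± 0.12) and Ccng1 (-0.48 ± 0.12), were named after their values were seen. With size scaling alone, or without control library 1 or control library 3, 6 rose, and the number was 4 with Wt1 siRNA library 4 left out and 5 with library 5 left out.

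Other genes of the same pathway, 55 in all, held 15 that fell (27.3%) and 1 that rose (1.82%), with a median of -0.16. The shares over all genes tested were 10.3% lower and 9.05% higher. Sem1, a small acidic protein that binds BRCA2, went from 99.1, 86.1 and 95.4 to 50.5, 47.3 and 52.4 CPM (-0.90 ± 0.11, edgeR adjusted p = 2.44e-04). Usp1, the protease that removes ubiquitin from FANCD2, went from 75.4, 67.1 and 92.2 to 43.1, 40.3 and 44.4 CPM (-0.88 ± 0.13, edgeR adjusted p = 8.97e-04). Mdc1, a scaffold on damaged chromatin, fell by 0.64 ± 0.12 on the log2 scale. Wdr48, the activating partner of USP1, also fell (-0.47 ± 0.11) and was named after its values were seen. Hus1, a subunit of the checkpoint clamp, was the gene that rose (0.61 ± 0.16), also named after its values were seen; it passed in 2 of 6 fits with a library left out, losing the call when control library 1 or 2 or Wt1 siRNA library 4 or 6 was missing, and with size scaling alone 0 genes of the list rose. Without control library 1 the number that fell was 10, without control library 3 it was 8, and lacking Wt1 siRNA library 4 it was 7.

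**Figure D5:**
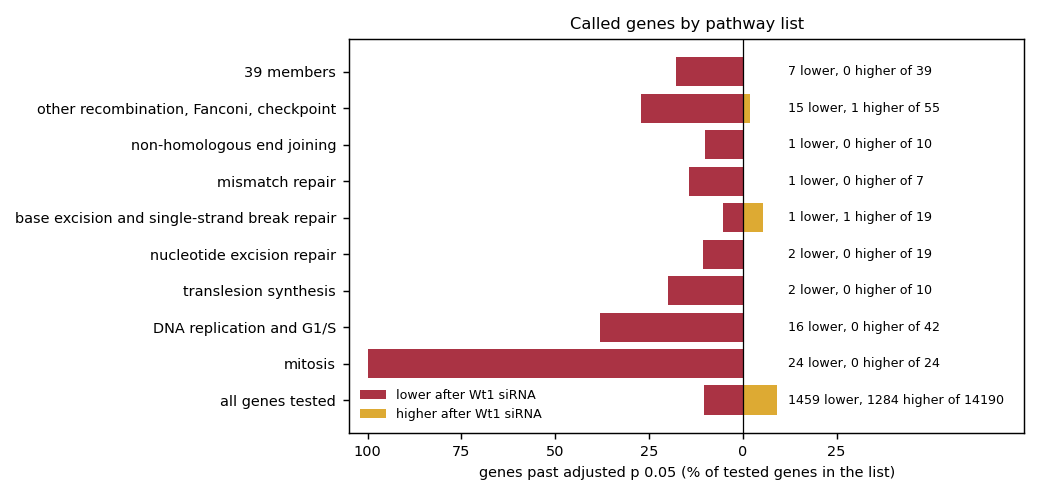
Share of tested genes past adjusted p 0.05 in edgeR, lower (red, to the left) and higher (yellow, to the right) after Wt1 siRNA, for the 39 members, other repair and division lists, and all genes tested, with counts at the right. The members reach 17.9% lower, between all genes at 10.3% and replication at 38.1%; mitosis is at 100%.

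Other repair routes were read from shorter lists. Of 10 genes of non-homologous end joining 1 fell, Polm, a gap-filling polymerase (-0.99 ± 0.18), and of 7 mismatch repair genes 1, Mlh3 (-0.56 ± 0.14). Of 19 genes of base excision and single-strand break repair 1 fell, the glycosylase gene Neil3 (-1.14 ± 0.23), and 1 rose, the glycosylase gene Tdg (0.49 ± 0.11). Of 19 nucleotide excision repair genes 2 fell, the nuclease gene Ercc5 (-0.52 ± 0.12) and the TFIIH gene Gtf2h3 (-0.47 ± 0.14). Of 10 translesion synthesis genes 2 fell, Rad18 (-0.89 ± 0.22) and Ube2b (-0.48 ± 0.13), which form a ligase and E2 pair. Shares of lower genes in these lists ran from 5.26% to 20.0%, a range that holds both the 10.3% of all genes and the 17.9% of the members; differences between lists were not tested. With 1 library left out, the calls of Polm, Neil3 and Tdg held in 6 of 6 fits. Ercc5 was lost without Wt1 siRNA library 4, Gtf2h3 without any of the 6, and Mlh3 without control library 1 or Wt1 siRNA library 4 or 5. Ube2b was lost without control library 1 or Wt1 siRNA library 4 or 5, and Rad18 in the fits lacking control library 1 or 3 or Wt1 siRNA library 4 or 5. Medians were -0.21 for end joining, -0.35 for mismatch repair, 0.01 for base excision, 0.07 for nucleotide excision and -0.15 for translesion synthesis.

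A trait not used to pick the members is their position beside another gene. In the GENCODE annotation 14 of 39 (35.9%) have a protein-coding neighbour on the other strand whose start lies head to head within 1000 bp. The share was 15.5% over 13119 tested genes. Of the 14 neighbours of members 3 fell and 1 rose, where 10.3% of all genes tested were lower and 9.05% were higher. Fancd2 lies 30 bp from Emc3, a membrane insertase subunit, which also fell (-0.61 ± 0.11, edgeR adjusted p = 0.00219). Mre11a and Ankrd49 overlap at their starts by 202 bp, and Ankrd49 fell too (-1.36 ± 0.18, edgeR adjusted p = 3.81e-04). Since 1.8% of the exon bases of Mre11a lie under Ankrd49, a few reads could be shared if strand was not used. Rad54l fell while Pomgnt1, a glycosyltransferase gene 150 bp away, rose (0.44 ± 0.12, edgeR adjusted p = 0.0193). Nbr1, an autophagy receptor gene 194 bp from Brca1, did not pass (-0.28 ± 0.11, edgeR adjusted p = 0.108), nor did Tex14, 111 bp from Rad51c (2.25 ± 1.2, adjusted p = 0.215). The third neighbour that fell was Zfyve26, 978 bp from Rad51b (-0.57 ± 0.13), whose own partner did not pass.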

How the data were processed

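RNA of 6 libraries was measured by sequencing of total RNA, and groups and library numbers were taken from the sample titles. The authors deposited raw read counts per Entrez gene, not normalized, per the file's values. Per the submitters' processing notes, the tools were CASAVA 1.8, bcl2fastq, TopHat and DESeq and the build mm10 (GRCm38), without roles. The counting tool, annotation and strand setting were not given in the sources used here.

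Symbols came from RefSeq GRCm38.p6, exon lengths from the GENCODE M21 basic set. Counts were fitted with the quasi-likelihood test of edgeR 4.0.16 in R 4.3.3 (TMM, filterByExpr, siRNA group alone, Benjamini-Hochberg over 14190 genes, threshold 0.05). CPM uses the TMM scaling. The SE was taken as the size of the log2 fold change over the root of the F statistic. Alternatives were DESeq2 1.42.0, limma-voom (limma 3.58.1), RLE factors, size scaling alone, no filter, a filter of at least 1 CPM in 3 libraries, and each library left out. Libraries of one group had Pearson's r of 0.968 to 0.977 over genes (log2 CPM), and no pair agreed within sampling noise.

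Members past the threshold, or with an absolute log2 fold change of at least 1, were given in every library, the other members by values or counts, and up to 3 genes with the smallest p per pathway list. The members and lists were chosen with earlier results of these data known, so no list was given a p. The pairs for the ratios, neighbouring genes and the alternatives for the lists were added after seeing the data.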

Additional observations from a re-analysis of the deposited data

How the results depend on the processing

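Across the 12 alternatives the number of lower members was 7 with RLE factors, limma-voom and the stricter filter. It was 8 with DESeq2 and without a filter, and 11 with size scaling alone. With size scaling alone the median log2 fold change over all genes was -0.08, against 0.00 in the main test. The cause of the count of 11 was not tested. With each library left out the number of lower members ran from 4 to 11. Over all genes the lower calls of these fits ran from 785 to 1406 and the higher calls from 578 to 1253. The main test called 1459 genes lower and 1284 higher. In the first 6 settings the 7 genes of the main test were all among those called (7 of 7), and with a library left out 4 to 6 of them were. The number of higher members was 0 in all 12. The median log2 fold change of the members ran from -0.65 to -0.43 with a library left out, the last without Wt1 siRNA library 5, and from -0.65 to -0.55 in the other settings. Brca1, Rad50, Clspn and Fancd2 passed in 12 of 12. Of 755 values of single genes under an alternative, 705 stayed on their side of the threshold (uncalled values near 0 could change sign), 35 lost the call, 15 gained it and 0 changed sign with a call. No paired analysis was possible because the library numbers 1 to 3 and 4 to 6 share none between groups. The rarest members rest on few reads, Rad51c on 27 to 89 a library, Palb2 on 20 to 82 and Rad51b on 15 to 68; counting error and the spread between libraries were not separated there.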
